A study of Homo sapiens with 7 samples.

Results

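PEN-FFW was compared with PEN-MUT, its mutant control peptide, in SNU398 cells, by subtracting the log2 expression value of each gene in the PEN-MUT library from that in the PEN-FFW library. Genes were kept where the mean normalized count over the 4 RNA libraries was at least 50, and each difference was taken relative to the median kept gene. This left 12578 of the 23710 genes in the table (53%), called tested genes below although no statistical test between conditions was possible. SNU398 is an established human hepatocellular carcinoma line. Each culture received 1 of 4 peptides at 30 µM for 8 hours, either PEN-FFW, PEN-MUT, their relative PEN-WT or the carrier PEN alone, and 1 library was made from the total RNA of each. The same series holds 3 chromatin samples from this line (SALL4, acetylated histone H3 and their input), which are not analysed here.

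SALL4 is a zinc finger transcription factor of embryonic stem cells and fetal liver that is silent in most adult tissue and expressed again in some liver cancers. It represses genes by binding RBBP4, a subunit of NuRD, a complex that joins a nucleosome remodelling ATPase of the CHD family to the histone deacetylases HDAC1 and HDAC2. PEN is penetratin, per the labels, a peptide that carries cargo into cells. In the study as it is known, PEN-WT joins penetratin to the stretch of SALL4 that binds RBBP4, PEN-MUT carries a mutated form of that stretch and PEN-FFW an engineered variant of it. The comparison of PEN-FFW with PEN-MUT therefore asks which transcripts differ between cells given the engineered peptide and cells given a matched peptide with an altered binding stretch, at the same dose and time.

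Levels are given as median-scaled normalized counts: the deposited log2 values were turned back into normalized counts, and each library was scaled so that its median tested gene equals that of PEN-MUT. For PEN-FFW this multiplied every deposited value by 1.2341, because its median tested gene stood at -0.30 (log2) from PEN-MUT as deposited. Where 4 counts are listed without names, they are those of PEN-MUT, PEN-FFW, PEN and then PEN-WT. Differences are log2, PEN-FFW minus PEN-MUT, and ± is the standard error of counting reads only. A culture-to-culture error could not be measured with 1 library per peptide, so no difference below has a replicate check or a p-value, and the true uncertainty exceeds the counting error. In bulk RNA of this kind, fewer cells that express a gene and less RNA per cell cannot be told apart. The reads counted in genes above the table's lowest value numbered between 27347377 (PEN-FFW) and 40717633 (PEN-WT). In every library 10 genes took between 5.37% and 5.72% of them.

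The difference between PEN-FFW and PEN-MUT ran mostly one way at large folds. At least 2-fold higher in PEN-FFW were 360 genes (2.86% of those tested), while 2 genes, HMGCLL1 and PLCL2, were at least 2-fold lower (0.0159%). At 1.5-fold there were 976 higher genes (7.76%) and 25 lower ones (0.199%). The 95% counting interval lay wholly past 2-fold higher for 160 genes (1.27%), and wholly past 2-fold lower for 0. Because differences were taken from the median gene, small ones balance by construction, and 3635 genes had a counting interval wholly above it and 3560 wholly below. The lower and upper quartiles were -0.13 and 0.20, a narrow band, whereas the 1st and 99th percentiles were -0.39 and 1.40.

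**Figure D1:**
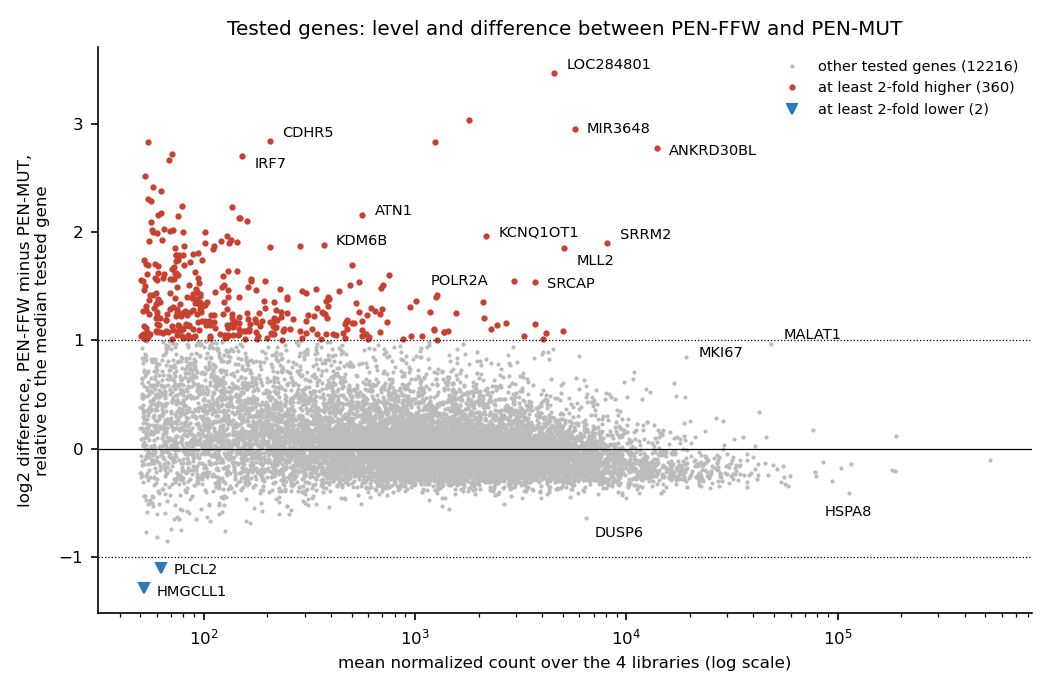
Log2 difference between PEN-FFW and PEN-MUT (vertical axis, centred on the median tested gene) plotted over the mean normalized count over the 4 libraries (horizontal axis, log scale), 1 point per tested gene and 1 library per peptide. The 360 genes at least 2-fold higher reach 3.47 and lie mostly at low counts, the 2 genes at least 2-fold lower are PLCL2 and HMGCLL1, and the most abundant genes lie mostly just below 0.

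The highest differences belonged to loci that carry stretches like ribosomal RNA, the RNA that forms the body of the ribosome. LOC284801 had 1334 median-scaled normalized counts in PEN-MUT and 14780 in PEN-FFW, with 1004 in PEN and 3966 in PEN-WT (3.47 ± 0.04). ANKRD30BL, which the annotation gives as protein coding on chromosome 2 (132905164 to 133015542, minus strand, GRCh37), had 6088, 41562, 4894 and 11182 in the same order (2.77 ± 0.02). In both, PEN-FFW stood highest and PEN-WT next, above the 2 control libraries. The microRNA loci MIR3648 and MIR3687 lie 192 bases apart on chromosome 21, in sequence that belongs to ribosomal DNA. MIR3648 had 1855, 14322, 986 and 8325 counts (2.95 ± 0.04), and MIR3687 had 588, 4825, 373 and 2320 (3.04 ± 0.06). Of the 8 loci on the list of this kind 6 were in the table and 4 were tested, all 4 at least 2-fold higher (2.86% of all tested genes were). The list was drawn up with earlier results of these data known, so this count is no independent support for a class. Ribosomal DNA has many near-identical copies, so which molecule was counted at these loci is uncertain.

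MIR663A, a further microRNA locus outside that list, had 535 counts in PEN-MUT and 3803 in PEN-FFW, with 480 in PEN and 903 in PEN-WT (2.83 ± 0.07). LOC284801 has no position in the annotation used, so whether it overlaps MIR663A was not checked. They may not be independent items. Of the 11 tested genes with a microRNA symbol, 3 were at least 2-fold higher (2.86% of all tested genes were), and these were MIR3648, MIR3687 and MIR663A. The labels name no selection of small RNA, so the counts are those of the loci and say nothing of mature microRNAs. The mature sequences, from RefSeq (GRCh38.p14, chr20:26208243-26208264 on the minus strand and chr21:8987026-8987046 on the plus strand), are shown to identify 2 of the loci, with the seed (bases 2 to 8) in capitals; both are rich in G and C, and their seeds differ.
hsa-miR-663a: aGGCGGGGcgccgcgggaccgc
hsa-miR-3648: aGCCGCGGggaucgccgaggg

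Among genes ranked by the end of the counting interval nearest 0, the 14 highest ran from ANKRD30BL to MLL2. CDHR5, a cadherin found on intestinal microvilli, and IRF7, the master regulator of type I interferon genes, are neighbours 594 bases apart on the minus strand of chromosome 11. CDHR5 had 85 counts in PEN-MUT and 607 in PEN-FFW, with 93.8 in PEN and 153 in PEN-WT (2.84 ± 0.17). IRF7 had 64, 417, 87.8 and 116 (2.70 ± 0.20). As neighbours on 1 strand they are not independent items. ATN1, a transcriptional corepressor (chromosome 12, 7033626 to 7051484, plus strand), had 290, 1292, 327 and 584 counts (2.16 ± 0.09). SRRM2, a large scaffold protein of nuclear speckles (chromosome 16, 2802627 to 2822539, plus strand), had 4822, 17926, 5685 and 7506 (1.89 ± 0.02). In each of these 4 genes PEN-MUT was the lowest library and PEN the next, PEN-WT lay above both and PEN-FFW lay far above PEN-WT.

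The symbol MLL2, used in the table, is an older name shared by 2 histone methyltransferase genes in RefSeq, so the gene is uncertain. Its counts were 3077 in PEN-MUT and 11099 in PEN-FFW, with 3612 in PEN and 4604 in PEN-WT (1.85 ± 0.03). Lower in abundance were FLRT1, a cell adhesion gene (2.72 ± 0.28), DOK7, an adaptor of the neuromuscular junction (2.83 ± 0.34), and BTBD6, a BTB domain protein (2.67 ± 0.30). DOK7 rested on 21 counts in PEN-MUT and 149 in PEN-FFW, and FLRT1 on 32 and 211, hence their wide counting errors. The filter itself admitted some genes through the library where they are high: in 51 of the 360 genes at least 2-fold higher the mean of the other 3 libraries was under 50. These include 6 of the 14 highest, FLRT1, DOK7, BTBD6, SSPO, PRKXP1 and ANP32A-IT1, which had to differ to be tested. SSPO and PRKXP1, annotated as pseudogenes, had differences of 2.41 ± 0.30 and 2.38 ± 0.29. The remaining 3 of the 14 were noncoding: ANP32A-IT1 (2.52 ± 0.30), UCKL1-AS1 (2.23 ± 0.19) and KCNQ1OT1 (1.96 ± 0.05).

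**Figure D2:**
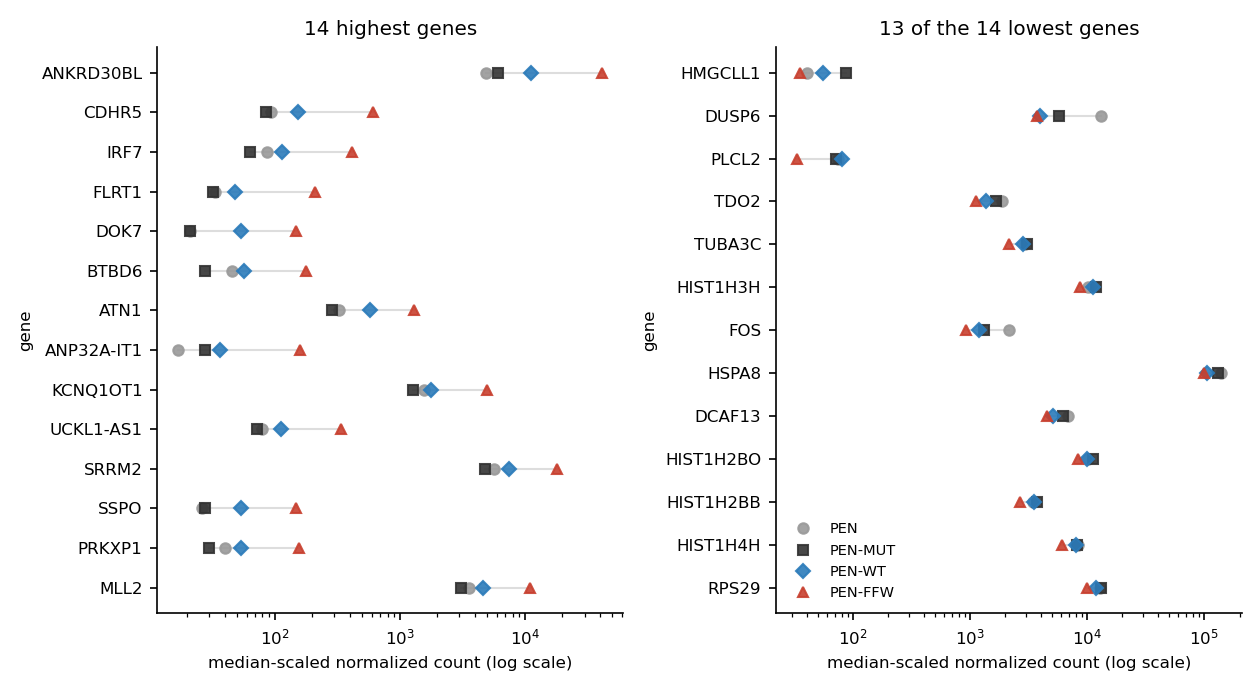
Median-scaled normalized counts (horizontal axes, log scale) of the 14 highest genes and 13 of the 14 lowest, by the end of the counting interval nearest 0, in the 4 libraries, 1 symbol for each (the legend names the peptides). All 14 higher genes have PEN-FFW as the highest library with PEN-WT next, and among the lower genes DUSP6 spans the widest range, from 13234 in PEN to 3708 in PEN-FFW.

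The lower end held much smaller folds. HMGCLL1, an enzyme of ketone body and leucine metabolism, had 86 counts in PEN-MUT and 35.3 in PEN-FFW, with 40.1 in PEN and 55.1 in PEN-WT (-1.28 ± 0.30), so it was PEN-MUT that stood apart, and only through that library did the gene pass the filter. PLCL2, a phospholipase C-like protein, had 71, 33.0, 74.2 and 79.9 (-1.10 ± 0.32), and here PEN-FFW stood apart. TDO2, the liver enzyme that opens the tryptophan ring, had 1666, 1130, 1874 and 1362 (-0.56 ± 0.06). Among the other lowest genes were TUBA3C, a tubulin (-0.51 ± 0.04), DCAF13, a ribosome assembly factor (-0.45 ± 0.03), the ribosomal protein gene RPS29 (-0.41 ± 0.02), 4 histone genes, and DUSP6, FOS and HSPA8, described with their groups. A counting interval wholly past 1.25-fold lower, a size chosen after the values were seen, held for 44 genes, with a median mean count of 4084; a choice by counting interval favours abundant genes. The same size in the higher direction held for 1124 genes. Chosen by fold alone, the 25 genes at least 1.5-fold lower had a median mean count of 77.9 and the 360 genes at least 2-fold higher 121, both far under the 1091 of all tested genes.

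Nuclear-retained long RNAs, which stay in the nucleus and in part build nuclear bodies, were higher in PEN-FFW. All 4 tested members of 5 listed stood above the median gene, with a median of 1.19, and 2 were at least 2-fold higher (2.86% of all tested genes were). KCNQ1OT1, the antisense RNA of an imprinted locus on chromosome 11, had 1284 counts in PEN-MUT and 4995 in PEN-FFW, with 1561 in PEN and 1765 in PEN-WT. NEAT1, the scaffold RNA of paraspeckles, had 897, 2393, 1115 and 1141 (1.42 ± 0.06), and MALAT1, an RNA of nuclear speckles, had 38131, 74636, 48436 and 48358 (0.97 ± 0.01). For both, PEN and PEN-WT were nearly equal and PEN-MUT was the lowest library. TUG1 differed least (0.30 ± 0.03, and 0.00 as deposited). Relative to genes of like transcript GC content, length and mean level, the median of the 4 was 1.16, close to the value against all genes. Relative to genes of like transcript length alone, matched in finer groups, it was 1.00. The annotated transcript of KCNQ1OT1 has only 679 bases, while its gene runs from 2618538 to 2721233 (GRCh37). Its match by length, which enters both medians, is therefore uncertain.

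Other noncoding classes shifted by less. Antisense and intronic transcripts had 86 of 113 tested members above the median gene and a median of 0.19 (-0.12 as deposited). At least 2-fold higher were 9 of the 113 (2.86% of all tested genes were), among them SLFNL1-AS1 (1.97 ± 0.20) and CCDC74B-AS1 (2.10 ± 0.29). FGD5-AS1 was on the other side (-0.24 ± 0.03). LINC transcripts had 27 of 43 above and a median of 0.09 (-0.21 as deposited and -0.03 relative to genes of like mean level); LINC00645 stood at 1.87 ± 0.20 and LINC00460 at -0.67 ± 0.17. Small nucleolar and Cajal body RNAs, which guide modification of ribosomal and spliceosomal RNA, had 91 of 119 above and a median of 0.14 (-0.16 as deposited and -0.04 relative to genes of like mean level), and 0 of the 119 reached 2-fold. SNORD17 had 2554 counts in PEN-MUT and 4032 in PEN-FFW, with 2089 in PEN and 2541 in PEN-WT (0.66 ± 0.04). Many of these small RNAs lie inside introns of other genes, and without a known strand setting reads of the host cannot be told apart from theirs. By annotated class, the median was -0.01 in protein coding genes, 0.16 in long noncoding RNAs and 0.37 in pseudogenes. At least 2-fold higher were 2.26%, 7.59% and 17.0% of each. The classes differ in abundance, with median mean counts of 1204, 159 and 170 in the same order. Class and abundance were not separated here.

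Genes for large chromatin regulators stood above the median gene as a group. The histone methylation writers place methyl groups on histone H3. Of their 14 tested members 11 were above the median gene and 3 below, the median was 0.39, and 2 members were at least 2-fold higher (2.86% of all tested genes were). These 2 were MLL, which methylates lysine 4 of histone H3, with 3929 counts in PEN-MUT and 8336 in PEN-FFW, with 4192 in PEN and 5153 in PEN-WT (1.09 ± 0.03), and SETD1B, with 1075, 2273, 1077 and 1499 (1.08 ± 0.05). SETD1A (0.87 ± 0.05) and MLL3 (0.83 ± 0.03), which act on the same lysine, followed. Relative to genes of like GC content, length and mean level MLL stood at 0.96 and MLL3 at 0.82. On that scale SETD1B stood at 0.46 and SETD1A at 0.26. Length was matched loosely there, because the longest group held transcripts of 5881 to 109224 bases. MLL has 16600 bases and MLL3 16860. The Polycomb methyltransferase EZH2 (-0.04 ± 0.03) and the lysine 9 enzyme SETDB1 (0.00 ± 0.05) lay at the median gene. Another Polycomb methyltransferase, EZH1 (0.45 ± 0.08), lay above the list's median. That median was 0.09 as deposited and 0.26 relative to genes of like properties.

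Histone demethylases, which remove such marks, had 16 of 17 members above the median gene but a median of only 0.11 (-0.20 as deposited). KDM6B, which removes the Polycomb mark from lysine 27, was apart from all the others: it had 212 counts in PEN-MUT and 782 in PEN-FFW, with 277 in PEN and 356 in PEN-WT (1.88 ± 0.11), whereas the next member, KDM4B, differed by 0.26 ± 0.05 (-0.04 as deposited and 0.00 relative to genes of like properties). KDM1A, a demethylase found together with NuRD subunits, was the only one below (-0.19 ± 0.03). The difference of KDM6B was 1.17 relative to genes of like GC content, length and mean level, and its transcript is 62.2% G and C. The 250 bases before its start, from RefSeq (GRCh38.p14, chr17:7833967-7834216, plus strand), are shown because this gene stood farthest from the rest of its list; capitals mark the GC box letters GGGCGG on either strand.
KDM6B: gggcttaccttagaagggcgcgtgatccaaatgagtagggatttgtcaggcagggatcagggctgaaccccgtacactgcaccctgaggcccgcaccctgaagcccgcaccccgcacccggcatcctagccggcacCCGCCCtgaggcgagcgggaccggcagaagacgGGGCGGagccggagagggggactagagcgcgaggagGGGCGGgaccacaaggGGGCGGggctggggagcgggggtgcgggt
The GC box was less common among the higher genes than among all tested genes. It occurred in the 300-base promoter window (250 bases before the start to 50 after, both strands) of 114 of the 200 genes at least 2-fold higher that had a RefSeq promoter (57.0%), and in 71.5% of all 9862 tested genes that had one. Median promoter GC content was close in both sets (65.2% and 65.7%), unlike transcript GC content (58.3% and 48.3%). In the 44 genes with a counting interval wholly past 1.25-fold lower the GC box was rarer still. It occurred there in 16 of the 35 with a RefSeq promoter (45.7%), and their median promoter GC content was 53.3%.

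Chromatin remodellers, ATPases and partners that move nucleosomes, had 17 of 18 members above the median gene and a median of 0.26 (-0.04 as deposited). At least 2-fold higher were 2 of the 18 (2.86% of all tested genes were). SRCAP, the ATPase that loads the histone variant H2A.Z (chromosome 16, 30709530 to 30752730, plus strand), had 2472 counts in PEN-MUT and 7179 in PEN-FFW, with 2730 in PEN and 3781 in PEN-WT (1.54 ± 0.03). EP400, a related ATPase, had 1715, 3679, 2186 and 2304 (1.10 ± 0.04). ARID1A, a subunit of the BAF complex, differed by 0.92 ± 0.03, while the BAF ATPase SMARCA4 stood at the median gene (0.01 ± 0.02) and the ISWI ATPase SMARCA5 below it (-0.13 ± 0.02). Relative to genes of like GC content, length and mean level the list's median was 0.24. Relative to genes of like transcript length alone, matched in finer groups, it was 0.13.

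Corepressors and coactivators showed the same spread. Of 22 tested members 19 were above the median gene, 7 were at least 1.5-fold higher and 3 at least 2-fold. Among all tested genes 7.76% and 2.86% reached these folds. The list's median was 0.28, which was -0.03 as deposited and 0.15 relative to genes of like properties. Above ATN1's relative RERE, with 851 counts in PEN-MUT and 2039 in PEN-FFW, with 983 in PEN and 1217 in PEN-WT (1.26 ± 0.06), stood BCORL1, with 297, 816, 286 and 505 (1.46 ± 0.10), and ATN1 itself. The paired acetyltransferases EP300 (0.89 ± 0.03) and CREBBP (0.79 ± 0.04) differed by similar amounts. CTBP1 (-0.06 ± 0.03) and CTBP2 (-0.12 ± 0.03), which bind short peptide motifs of repressors, lay below the median gene, although CTBP1 stood at 0.04 relative to genes of like mean level.

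Among the RNA polymerase II genes a single subunit stood apart from its partners. Of the 12 tested subunits of RNA polymerase II, the enzyme that transcribes messenger RNA, 11 lay below the median gene, from -0.35 ± 0.04 (POLR2G) to -0.11 ± 0.05 (POLR2F). The remaining one, the catalytic subunit POLR2A (chromosome 17, 7387685 to 7417933, plus strand), had 2089 counts in PEN-MUT and 6109 in PEN-FFW, with 2113 in PEN and 2620 in PEN-WT (1.55 ± 0.04). POLR2B, the other large subunit, which forms the active centre with it, had 7671, 6707, 7795 and 7077 (-0.19 ± 0.03). The transcript of POLR2A has 6304 bases and is the longest of the 12, and the difference was 1.31 relative to genes of like GC content, length and mean level. On that scale POLR2G stood at -0.11, POLR2B at -0.03 and the median of the 12 at -0.06, where it was -0.19 against all genes. SR proteins, which guide splicing, were spread evenly, 10 above and 10 below with a median of 0.01, yet their list held SRRM2, SRRM1 (0.52 ± 0.04) and SON (0.47 ± 0.02) at one end and TRA2B (-0.22 ± 0.02) and SRSF3 (-0.19 ± 0.02) at the other. SRRM2 and SON, the 2 scaffold proteins of nuclear speckles, thus lay on the higher side with the speckle RNA MALAT1.

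**Figure D3:**
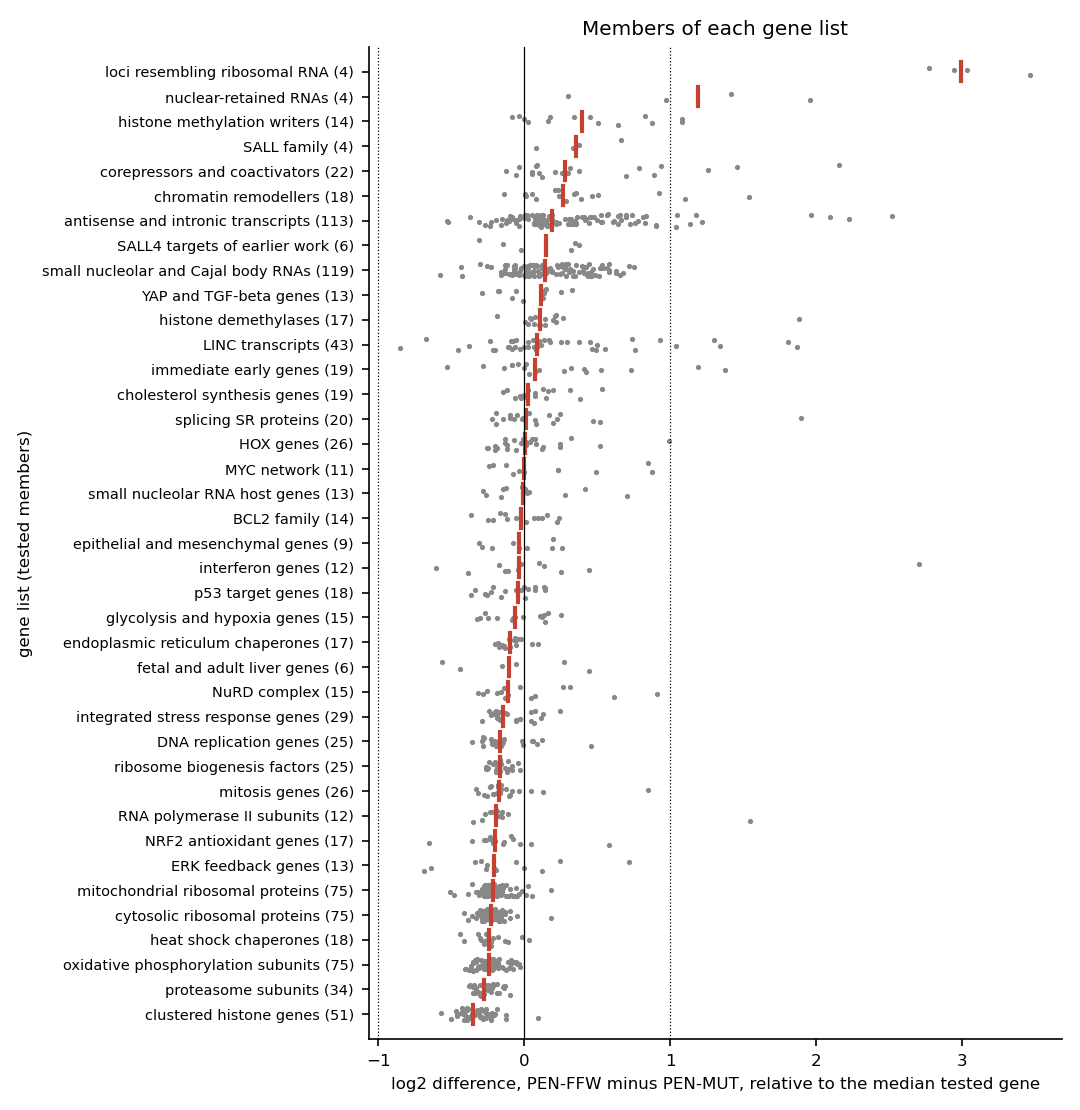
Log2 difference between PEN-FFW and PEN-MUT (horizontal axis, relative to the median tested gene) for every tested member of each gene list with at least 4 of them (grey points), ordered by the list's median (red bar); the number of tested members is in brackets. Medians run from -0.35 for clustered histone genes to 2.99 for loci resembling ribosomal RNA, and POLR2A, KDM6B, SRRM2 and IRF7 each appear as a single point far to the right of its list.

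The transcripts of SALL4 and RBBP4 differed little, and their levels do not measure the binding of the 2 proteins. SALL4 (chromosome 20, 50398870 to 50419060, minus strand) had 1359 counts in PEN-MUT and 1441 in PEN-FFW, with 1690 in PEN and 1291 in PEN-WT, a difference of 0.08 ± 0.06 whose counting interval includes 0. RBBP4 had 7082, 6468, 6875 and 6873 (-0.13 ± 0.03). All 4 SALL family genes were above the median gene, with SALL3 highest (0.66 ± 0.10), then SALL1 (0.38 ± 0.08) and SALL2 (0.34 ± 0.06). Relative to genes of like GC content, length and mean level the order changed, with SALL1 at 0.27, SALL2 at 0.12, SALL4 at 0.10 and SALL3 at 0.02. The median of the 4 was 0.36 against all genes, 0.11 against like genes and 0.05 as deposited, where SALL4 stood at -0.22. For SALL2 and SALL3 PEN-WT was nearly level with PEN-FFW: SALL3 had 355 counts in PEN-MUT and 563 in PEN-FFW, with 412 in PEN and 555 in PEN-WT. Of the genes described in earlier work as SALL4 targets, the 6 tested split evenly, 3 above and 3 below, with a median of 0.15 (-0.15 as deposited and -0.01 relative to genes of like properties).

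NuRD subunits lay on both sides of the median gene. Of 15 tested subunits 6 lay above the median gene and 9 below, with a median of -0.11. The deacetylases HDAC1 (-0.32 ± 0.03) and HDAC2 (-0.16 ± 0.03) and the histone chaperones RBBP7 (-0.28 ± 0.04) and RBBP4 were below. GATAD2B, a scaffold subunit, had 349 counts in PEN-MUT and 657 in PEN-FFW, with 382 in PEN and 526 in PEN-WT (0.91 ± 0.10), while its paralog GATAD2A differed by 0.07 ± 0.02 (-0.23 as deposited). Paralogs also differed among the MTA subunits, with MTA1 at 0.27 ± 0.03, MTA2 at -0.18 ± 0.02 and MTA3 at -0.11 ± 0.05, and among the methyl-CpG-binding subunits, with MBD3 at 0.05 ± 0.03 and MBD2 at -0.14 ± 0.07. Among the ATPases CHD5 (0.62 ± 0.05) and CHD3 (0.32 ± 0.03) were above, and CHD4, the most abundant of them with 18164 counts in PEN-MUT and 17824 in PEN-FFW, lay at the median gene (-0.03 ± 0.02). Relative to genes of like GC content, length and mean level CHD5 stood at 0.00 and CHD3 at 0.08, so neither kept its difference, whereas GATAD2B stood at 0.76.

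Signal-responsive genes went in both directions. NR4A nuclear receptors, induced rapidly by many stimuli, were higher: NR4A3 had 178 counts in PEN-MUT and 463 in PEN-FFW, with 172 in PEN and 268 in PEN-WT (1.38 ± 0.13), and NR4A2 had 148, 337, 292 and 175 (1.19 ± 0.15). NR4A1 differed by 0.73 ± 0.06. For NR4A2 the libraries fell into pairs, PEN with PEN-FFW above and PEN-WT with PEN-MUT below. FOS, an AP-1 gene of the same early class, had 1317, 913, 2149 and 1183 (-0.53 ± 0.06), and KLF10 was also lower (-0.28 ± 0.04). In the whole early list 13 of 19 members were above the median gene, with a median of 0.08 (-0.23 as deposited and -0.01 relative to genes of like properties).

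The ERK feedback list holds genes that respond to the ERK kinase pathway, some of which dampen it. Its members were mostly lower, 10 of 13, with a median of -0.21. Relative to genes of like GC content, length and mean level the median was similar (-0.22). DUSP6, a phosphatase of ERK (chromosome 12, 89741012 to 89746278, minus strand), had 5774 counts in PEN-MUT and 3708 in PEN-FFW, with 13234 in PEN and 3976 in PEN-WT (-0.64 ± 0.03). PEN was far above the other 3 libraries, and PEN-WT and PEN-FFW lay close together below PEN-MUT. SPRY2, an inhibitor of receptor signalling, had 5905, 4676, 8001 and 4520 (-0.34 ± 0.03), again with PEN highest. DUSP4 stood at -0.69 ± 0.18. On the higher side were SPRED3 (0.72 ± 0.19), SPRED2 (0.24 ± 0.05) and DUSP5 (0.12 ± 0.20). MYC had 4363, 3769, 6201 and 3877 (-0.21 ± 0.03), the same order of libraries as DUSP6. In the network around MYC its partner MAX was lower as well (-0.24 ± 0.06), whereas MNT (0.87 ± 0.10) and MLXIP (0.85 ± 0.06), which belong to the branches that oppose MYC or sense glucose, were higher. The MYC list as a whole had a median of 0.00, with 6 of 11 above.

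Genes for making proteins and for respiration were slightly lower almost without exception. Of 75 tested subunits of the respiratory chain and ATP synthase 75 lay below the median gene (median -0.24), as did 74 of 75 cytosolic ribosomal proteins (-0.23), 71 of 75 mitochondrial ribosomal proteins (-0.22), 34 of 34 proteasome subunits (-0.28) and 25 of 25 ribosome biogenesis factors (-0.17). By construction, as many tested genes lie above the median gene as below it. In none of these lists was a member 1.5-fold lower. COX7C, a small subunit of cytochrome oxidase, had 4474 counts in PEN-MUT and 3378 in PEN-FFW, with 4270 in PEN and 4110 in PEN-WT (-0.41 ± 0.03), and PSMA6, a subunit of the proteasome core, had 6991, 5372, 7084 and 6730 (-0.38 ± 0.03). RPLP0, of the ribosomal stalk, had 65141, 52073, 59888 and 59086 (-0.32 ± 0.01). In each of these the other 3 libraries lay within a narrow band and PEN-FFW lay below it. The transcripts are short, with a median of 784 bases in the respiratory list and 869 in the ribosomal protein list, beside 3402 in all tested genes. Relative to genes of like GC content, length and mean level the medians were -0.05 for respiration, -0.02 for cytosolic and -0.05 for mitochondrial ribosomal proteins, -0.09 for the proteasome and -0.05 for ribosome biogenesis, each nearer 0 than the value against all genes.

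Ribosome biogenesis factors process ribosomal RNA in the nucleolus, and many are known targets of MYC, which binds the E-box CACGTG. PES1, a nucleolar assembly factor, had 7182 counts in PEN-MUT and 6001 in PEN-FFW, with 7730 in PEN and 6576 in PEN-WT (-0.26 ± 0.03). WDR43 had 6813, 5724, 8123 and 5928 (-0.25 ± 0.03), and the abundant nucleophosmin gene NPM1 had 57365, 50270, 57883 and 50714 (-0.19 ± 0.01). PEN-WT lay with PEN-FFW in WDR43 and NPM1, and relative to genes of like properties NPM1 stood at 0.06. The E-box was found in the promoter window of 8 of 20 factors with a RefSeq promoter (40.0%), against 10.4% of all tested genes. Windows of 30 bases around the E-box (capitals; same on both strands) of the 5 factors with the lowest differences among the 8 are shown, 5′ to 3′ on the gene's strand, because the motif lies close to the start in all of them. Their positions on GRCh38.p14 are chr22:30591880-30591909 (minus strand) for PES1, chr2:28894658-28894687 (plus) for WDR43, chr1:19251807-19251836 (plus) for MRTO4, chr19:39846356-39846385 (minus) for FBL and chr3:51941892-51941921 (minus) for RRP9.
PES1: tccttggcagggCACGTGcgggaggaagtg
WDR43: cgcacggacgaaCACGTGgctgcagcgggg
MRTO4: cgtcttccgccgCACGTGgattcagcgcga
FBL: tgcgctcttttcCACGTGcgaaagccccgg
RRP9: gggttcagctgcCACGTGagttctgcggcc
The factors with and without the motif had similar medians (-0.17 and -0.18), and across all tested genes the medians with and without it were both -0.01.

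Heat shock chaperones refold proteins and are induced by the factor HSF1. The list holds cytosolic ones and the mitochondrial pair HSPD1 and HSPE1. Its members were lower in 17 of 18, with a median of -0.24 and a median of -0.12 relative to genes of like properties. HSPA8, the constitutive HSP70 (chromosome 11, 122928197 to 122933938, minus strand), had 132065 counts in PEN-MUT and 99349 in PEN-FFW, with 138431 in PEN and 105331 in PEN-WT (-0.41 ± 0.01). HSP90AB1 had 107181, 87335, 108003 and 93050 (-0.30 ± 0.01), and HSPD1, the mitochondrial HSP60, had 47278, 38918, 48023 and 41045 (-0.28 ± 0.01). In all 3 the libraries formed a pair of control peptides and a lower pair, PEN-WT with PEN-FFW. HSPE1, the partner of HSPD1, differed by -0.44 ± 0.04, and BAG3 was the member above the median gene (0.04 ± 0.06). HSPA1A and HSPA1B are near-identical copies, so their separate values are uncertain. The heat shock element, searched as GAANNTTC (the same on both strands), was in the promoter window of 6 of 17 chaperones (35.3%) and of 4.37% of all tested genes. The 250 bases before the start of HSPA8 (GRCh38.p14, chr11:123062137-123062386, minus strand) are shown because this is the most abundant of the 14 lowest genes and holds 2 such elements, in capitals.
HSPA8: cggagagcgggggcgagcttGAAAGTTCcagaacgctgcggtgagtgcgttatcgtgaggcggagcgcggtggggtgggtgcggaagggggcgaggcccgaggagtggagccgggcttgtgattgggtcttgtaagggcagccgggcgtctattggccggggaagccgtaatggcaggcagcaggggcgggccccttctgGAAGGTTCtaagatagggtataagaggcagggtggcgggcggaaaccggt
Chaperones with and without the element had medians of -0.29 and -0.23.

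Other stress programmes differed less. Antioxidant genes under the factor NRF2 had 15 of 17 members below the median gene, with a median of -0.20 that was -0.05 relative to genes of like properties. TXNRD1, thioredoxin reductase, had 17646 counts in PEN-MUT and 15148 in PEN-FFW, with 18884 in PEN and 18759 in PEN-WT (-0.22 ± 0.02, and -0.06 relative to like genes). The ferritin light chain FTL differed by -0.35 ± 0.02, and by -0.15 relative to like genes. The antioxidant response element, searched as TGACNNNGC on both strands, was in 4 of 12 promoter windows of this list (33.3%) and in 15.2% of all. The copy upstream in TXNRD1 (GRCh38.p14, chr12:104215669-104215698, plus strand) is shown as an example of the letters matched.
TXNRD1: tacacgggctaTGACTTCGCtgttgtcacc
Endoplasmic reticulum chaperones (15 of 17 below, median -0.10) and integrated stress response genes (22 of 29 below, median -0.14) were nearer the median gene, and relative to genes of like properties their medians were 0.02 and -0.03. DDIT3, a stress-induced factor, stood at 0.24 ± 0.06 (-0.06 as deposited), opposite to TRIB3 (-0.29 ± 0.05) and the tRNA synthetase WARS (-0.23 ± 0.03). Cholesterol synthesis genes were balanced (11 of 19 above, median 0.03), with the master regulator SREBF2 (0.54 ± 0.05) on the higher side.

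Histone genes and cell division genes lay mostly below the median gene. Of 51 tested clustered histone genes, which are transcribed in S phase and carry no poly(A) tail, 50 lay below the median gene, with a median of -0.35, the lowest of the lists. HIST1H3H had 11818 counts in PEN-MUT and 8611 in PEN-FFW, with 10141 in PEN and 11099 in PEN-WT (-0.46 ± 0.02), and HIST1H2BO had 11277, 8377, 10110 and 10032 (-0.43 ± 0.02). Their median transcript has 486 bases, and relative to genes of like GC content, length and mean level the median was -0.15. Mitosis genes were below in 23 of 26 (median -0.17), among them CCNB1, cyclin B1 (-0.33 ± 0.02), and CDK1 (-0.31 ± 0.02). MKI67, the proliferation antigen Ki-67, whose transcript has 12716 bases, had 16108 counts in PEN-MUT and 28982 in PEN-FFW, with 17196 in PEN and 19907 in PEN-WT (0.85 ± 0.01). Replication genes were below in 20 of 25 (median -0.16), and the exception of size was POLE, the catalytic subunit of DNA polymerase epsilon, with 8426, 11603, 8958 and 8730 (0.46 ± 0.02). Against genes of like properties the mitosis median was -0.02 and the replication median -0.04.

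The remaining lists lay close to the median gene. p53 targets (7 of 18 above, -0.04), the BCL2 family (7 of 14, -0.02), HOX genes (13 of 26, 0.00), interferon genes (5 of 12, -0.03), glycolysis and hypoxia genes (6 of 15, -0.07), epithelial and mesenchymal genes (4 of 9, -0.03) and small nucleolar RNA host genes (6 of 13, -0.01) were close to balance. The YAP and TGF-beta list had 7 of 13 above and a median of 0.11 (-0.19 as deposited). Apart from IRF7, interferon genes were near the median or lower: IFIT5, an RNA-binding effector, had 289 counts in PEN-MUT and 190 in PEN-FFW, with 300 in PEN and 269 in PEN-WT (-0.60 ± 0.14).

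The liver label was checked against defining genes. Of 19 listed fetal and adult liver genes 6 were tested and 10 were at the table's lowest value in all 4 libraries, including HNF4A, FOXA2, APOB and TTR, while GPC3 (1281 counts in PEN-MUT and 1232 in PEN-FFW) and FOXA1 (1054 and 949) were present. AFP had 11 counts in PEN-MUT and 11.4 in PEN-FFW, close to the lowest value. The libraries thus lacked most hepatocyte markers. Of 7 blood cell markers 5 were at the lowest value in all 4 libraries, and their summed level was 403 in PEN-MUT and 407 in PEN-FFW, with 366 in PEN and 392 in PEN-WT, nearly all of it PTPRC. Of 7 endothelial and stromal markers 4 were at the lowest value, PECAM1, VWF, CDH5 and KDR. The summed level ran from 186 in PEN to 330 in PEN-FFW, of which COL1A1 made up 129 and 272. COL1A1 differed by 0.80 ± 0.15, but by 0.09 relative to genes of like GC content, length and mean level.

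Across genes, the difference was higher in transcripts that were long, rich in G and C or low in abundance. Spearman's rho across genes was 0.33 for GC content (12115 genes with an annotated transcript), 0.30 for length, 0.22 for the number of exons and -0.36 for the mean count. These are descriptions over genes that share 2 libraries, and genes are not replicates. Between the groups of lowest and highest GC content, of 5 equal ones, the median difference went from -0.07 to 0.16, and the share of genes at least 2-fold higher from 0.413% to 6.27%. For length the median went from -0.12 in the shortest to 0.10 in the longest group, but the share at least 2-fold higher was 2.81% and 2.93%, with no trend between. Between the least and the most abundant of 5 such groups it went from 0.22 to -0.10 and the share from 10.7% to 0.437%. Taken by both properties at once, the median was -0.19 in short transcripts of low GC content and 0.54 in long transcripts of high GC content, where 16.4% of 183 genes were at least 2-fold higher. The number of genes at least 2-fold higher was 160 when each gene was set against genes of like GC content, length and mean level, a setting added after the values were seen, and all 160 were among the 360. Of the 360 only 309 have an annotated transcript and so a value there, so 51 of those no longer counted were lost for want of one.

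**Figure D4:**
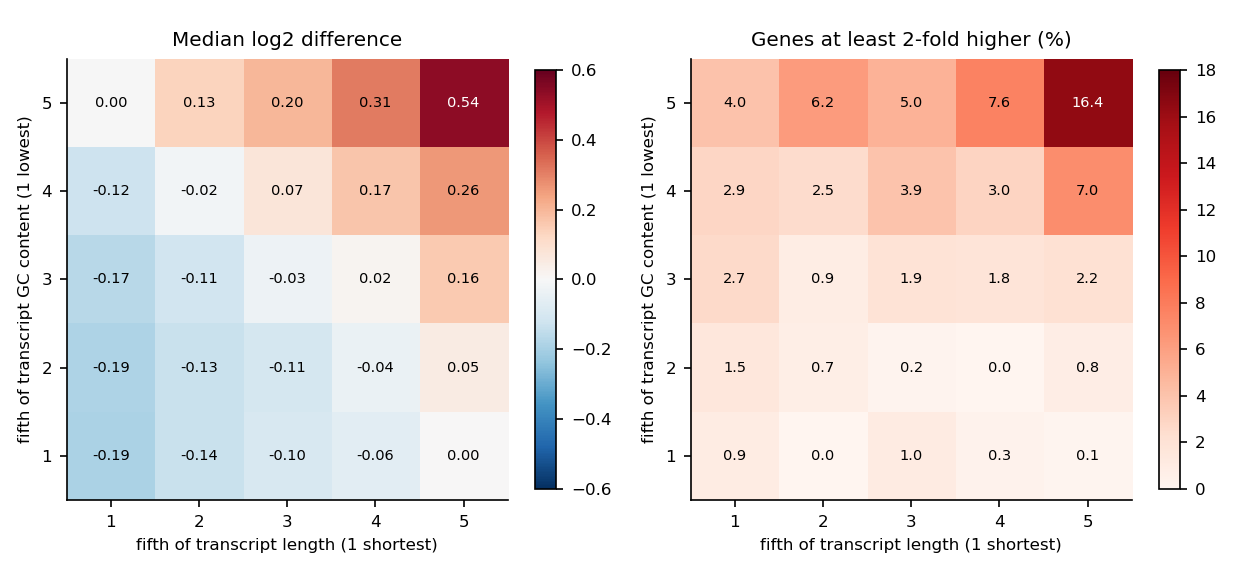
Median log2 difference between PEN-FFW and PEN-MUT (left) and the percentage of genes at least 2-fold higher (right) in 25 groups of genes, by 5 equal groups of transcript length (horizontal axes, 1 shortest) and 5 of transcript GC content (vertical axes, 1 lowest). The median climbs from -0.19 at the lower left to 0.54 at the upper right, where 16.4% of genes are at least 2-fold higher.

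The share of higher genes varied by chromosome, in part with GC content. Chromosome 16, with a median transcript GC content of 56.5%, had 6.00% of its 550 tested genes at least 2-fold higher, and chromosome 19, at 59.4%, had 4.41% of 930. Chromosome 4, at 42.0%, had 0.924% of 433. Chromosome 22 had the GC content of chromosome 16 (56.5%) but only 2.70% of its 296 genes at least 2-fold higher, near the 2.86% of all genes. Higher genes also lay beside each other: of the 242 with a tested gene within 10000 bases, 26 (10.7%) had a neighbour that was at least 2-fold higher too, against 405 of 7484 other genes (5.41%). Besides CDHR5 with IRF7 and MIR3648 with MIR3687, such pairs included PLXNB3 with SRPK3, which touch on chromosome X (2.02 and 1.72), and ARHGAP33 with C19orf55 on chromosome 19 (1.47 and 1.06). Where 2 genes touch or overlap, part of the reads may be shared.

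The other 2 libraries showed whether PEN-FFW or PEN-MUT stood apart. In the 360 genes at least 2-fold higher PEN-FFW was the highest of the 4 libraries without exception, and PEN lay nearer PEN-MUT than PEN-FFW in 349. PEN-FFW was at least 2-fold above PEN too in 254 of them, but at least 2-fold above PEN-WT in only 129 (35.8%). It was at least 1.5-fold above both PEN and PEN-WT in 313. PEN-MUT was the lowest of the 4 libraries in 274 (76.1%). PEN-WT took a middle place: on a scale on which PEN-MUT is 0 and PEN-FFW is 1, the median position was 0.12 for PEN and 0.32 for PEN-WT. The genes were chosen for a high PEN-FFW and a low PEN-MUT value, which favours these orders.

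PEN-WT and PEN share no library with PEN-FFW and PEN-MUT, so their difference was computed separately for the same genes. PEN-WT was above PEN in 291 of the 360 genes (80.8%), and by at least 1.5-fold in 50 of 360, as against 141 of all 12578 tested genes. The median of PEN-WT minus PEN in the 360 was 0.25, where that of PEN-FFW minus PEN-MUT was 1.26. In the 44 lower genes PEN-WT was above PEN in 10, with a median of -0.06. Over all tested genes Pearson's r between the 2 differences was 0.41 and Spearman's rho 0.41, and both differences followed GC content: PEN-WT minus PEN had a median of -0.06 in the group of lowest GC content and 0.11 in that of highest. The order of genes was thus partly alike in the 2 pairs of libraries, at a smaller size in PEN-WT. With 1 library per peptide, a difference between the engineered peptide and PEN-WT could not be tested, and neither could their likeness.

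**Figure D5:**
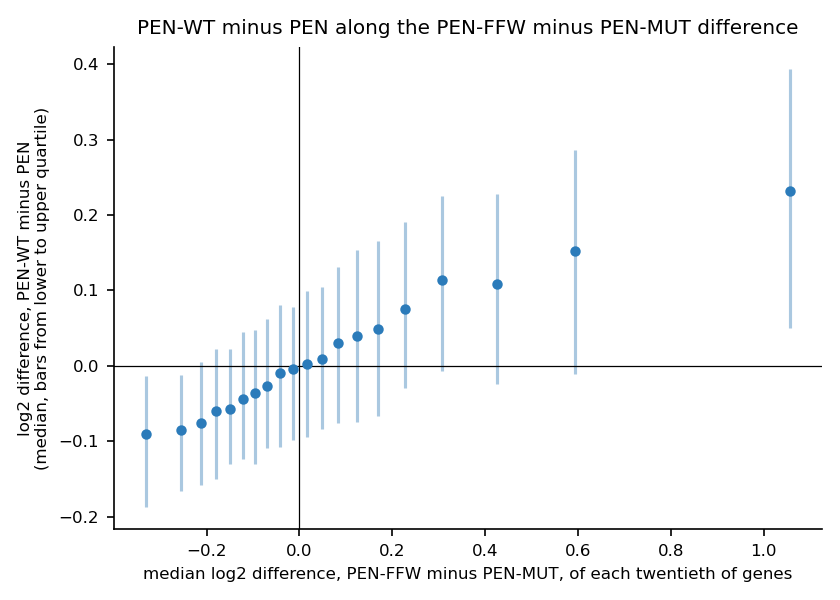
PEN-WT minus PEN (vertical axis, log2, points are medians and bars run from the lower to the upper quartile over about 629 genes) against PEN-FFW minus PEN-MUT (horizontal axis, log2 median) in 20 equal groups of tested genes ordered by the latter. The medians climb from -0.09 to 0.23 as the horizontal value goes from -0.33 to 1.06.

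The level that decided which genes were tested lay in a range of low precision. The 3 genes just above it were PCDHB9 (0.19 ± 0.29), ETS1 (-0.23 ± 0.32) and LRRTM3 (0.39 ± 0.27), and the 3 just below were SFRP4 (0.28 ± 0.30), STARD13 (0.29 ± 0.27) and ARHGDIG (-0.15 ± 0.30). The counting error of such genes exceeds most of the group shifts given above, while the median counting error over all tested genes was 0.06. Of the highest abundant genes, those with a mean count of at least 5000, ATXN2L, a stress granule protein, differed by 0.85 ± 0.03, the ubiquitin ligase UBR4 by 0.70 ± 0.02, PRRC2C by 0.65 ± 0.02 and TRRAP, a scaffold of acetyltransferase complexes, by 0.65 ± 0.03. Of the lowest, TUBA1C, a tubulin, differed by -0.40 ± 0.02 and LUM, the matrix proteoglycan lumican, by -0.39 ± 0.02, beside HIST1H3B, HIST1H4E, HIST1H4B and HIST1H3D between -0.41 and -0.39.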

How the data were processed

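RNA of 4 libraries was analysed, 1 per peptide. Paired-end reads were mapped to hg19, per the labels; among tools, the submitters' processing notes name STAR 2.4.0i and featureCounts 1.5.0-p1. How the values were normalized, with which annotation and strand setting, is not given in the sources used here. The authors deposited log2 values per gene. Undoing the log gave whole reads times 1 factor per library for 100% of values above the lowest one, 5 (tolerance 0.1 read), and these reads gave the counting errors (Poisson, on the log2 scale).

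From these values the differences, counts at fixed folds, list medians and promoter searches were computed with Python 3.11.15, numpy 2.4.6 and pandas 2.3.3, and the script was tested on simulated data. The members and gene lists were chosen with earlier results of these data known. Named genes were the 14 highest and 14 lowest by the end of the 95% counting interval nearest 0 (clone names and small RNAs left out), the 6 highest and 6 lowest of mean count at least 5000, at most 5 per list, SALL4, RBBP4 and MYC, and 3 genes on either side of the filter; other genes named were chosen after their values were seen, and some genes the rule names are not reported here. Transcript length and GC content came from GENCODE 44 on GRCh37 (20574 symbols matched, 1569 by an older symbol, 1567 not). RefSeq sequences are on GRCh38.p14. Alternatives were a pseudocount of 10, other filters, other centring, and centring on genes of like GC content, length or mean level. Single properties were matched in 20 groups each, and the joint setting used fewer groups per property.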

Additional observations from a re-analysis of the deposited data

How the results depend on the processing

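No paired analysis was possible because each peptide has 1 library, and for the same reason no replicate could be left out. More genes were at least 2-fold higher than lower under each of the 10 alternatives tried, 2 of them (like transcript length alone, and like GC content, length and mean level together) chosen after seeing the data. The main counts were 360 higher and 2 lower. They were 952 and 24 with a filter at a mean of 10, 122 and 0 at a mean of 200, 1264 and 33 with no filter, 160 and 8 as deposited, and 228 and 9 relative to genes of the same mean expression. Relative to genes of like GC content, length and mean level 160 were higher, with values for 309 of the 360, and with a pseudocount of 10 only 1 was lower. A lower filter admits genes of few reads, so those added calls rest on larger counting errors. As deposited, the median gene is at -0.30, which turned the medians of the SALL4 targets (-0.15), YAP and TGF-beta genes (-0.19), histone demethylases (-0.20), chromatin remodellers (-0.040), corepressors and coactivators (-0.027), antisense and intronic transcripts (-0.12) and small nucleolar RNAs (-0.16), and the differences of TUG1 (-0.0024), KDM4B (-0.039), GATAD2A (-0.2306) and DDIT3 (-0.0585). The small nucleolar RNAs stood at -0.042 relative to genes of the same mean expression, and relative to genes of like GC content, length and mean level the SALL4 targets stood at -0.010, NPM1 at 0.058, FBL at 0.0332 and KDM4B at -0.0025. CTBP1 stood at 0.0375 relative to genes of the same mean expression and 0.0051 relative to those of the same length, and GATAD2A at -0.0025 relative to those of the same GC content. The cause of these changes was not tested. The other list medians of at least 0.1 in size, a limit set after seeing the data, and the other named differences whose counting interval excludes 0 did not change sign wherever they had a value, though CHD5 went to 0.00 relative to like genes. Medians under 0.1 changed sign more often, among them endoplasmic reticulum chaperones, LINC transcripts and immediate early genes. Depth limits the low genes: the median counting error was 0.19 among genes at least 2-fold higher and 0.06 among all tested genes.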
